A study of Mus musculus with 2 samples.

Results

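The alpha-globin locus was read as 9 genes that lie side by side on mouse chromosome 11. They are the globin genes Hba-a1, Hba-a2, Hba-x, Hbq1a and Hbq1b and the flanking genes Nprl3, Mpg, Snrnp25 and Rhbdf1. These genes were chosen by name and position and not by a measured value, though earlier results of these data were known. They are 9 of 21887 protein-coding genes, and all 9 are among the 21536 whose 5′ end could be placed. The locus window ran from 5000 bp before the first of these genes to 5000 bp after the last, chr11:32200415-32305873 on build mm10, a length of 105459 bp. It held 31 of the 48026 peaks of replicate 1 and 26 of the 46950 peaks of replicate 2.

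The mark measured was H3K4me3, histone H3 trimethylated on lysine 4, by chromatin immunoprecipitation and sequencing (ChIP-seq) in MEL cells, an immortalised mouse erythroleukaemia line. All cells had been kept in 2% dimethyl sulfoxide (DMSO), an inducer of erythroid maturation in this line, for 5 days. There was 1 group of 2 replicates, and untreated cells and an input library were not analysed here, so the values describe treated cells only and no effect of DMSO was tested. The labels number the libraries as biological replicates 1 and 2 but point to the same biosample record, so the SDs measure the spread between these 2 libraries, which may be technical. The erythroid marker genes Gata1, Klf1, Slc4a1, Alas2, Hba-a1, Hbb-bt and Sptb had a peak of both replicates within 1000 bp of a 5′ end. Of the myeloid markers Cebpa, Spi1, Mpo and Csf1r, 1 of 4 did (Cebpa, 9.19 ± 3.78), and the T cell marker Cd3e did not. Hba-a1 is itself a gene of the locus, so it is no separate marker here.

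Haemoglobin carries pairs of alpha-like and beta-like chains. In the mouse the alpha-like chains come from a cluster in which Hba-x (zeta-globin, an embryonic chain) is followed by copies of an adult alpha-globin gene, Hba-a1 and Hba-a2, each with a theta-globin gene (Hbq1b and Hbq1a) behind it. Adult alpha-globin transcription in red cell precursors depends on enhancers upstream of the cluster, most of them within introns of Nprl3. H3K4me3 is known as a mark of active and poised promoters, where it flanks the start of transcription.

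The sequences just before the first bases are shown before the values. All are RefSeq promoter sequences on GRCm38.p6, the assembly behind mm10, for the 250 bases that end just before the annotated first base. The table held 8 of the 9 genes, all but Rhbdf1. The adult copies came first. Compared over 297 letters around their annotated first bases, which are offset by 3 bases between the copies, Hba-a1 and Hba-a2 differed at 0 letters, so 1 sequence stands for both. Hba-x is shown beside it as the embryonic gene of the same cluster. Capitals mark the letters CCAAT, the letters CACCC, the letters GATAA and the letters ATATAA, on either strand.
Hba-a1 (chr11:32283422-32283671, plus strand): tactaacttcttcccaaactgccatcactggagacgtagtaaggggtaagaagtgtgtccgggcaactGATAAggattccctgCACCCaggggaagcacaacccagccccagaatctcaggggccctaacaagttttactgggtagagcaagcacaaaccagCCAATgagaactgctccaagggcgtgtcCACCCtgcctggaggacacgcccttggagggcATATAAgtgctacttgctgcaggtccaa
Hba-x (chr11:32276350-32276599, plus strand): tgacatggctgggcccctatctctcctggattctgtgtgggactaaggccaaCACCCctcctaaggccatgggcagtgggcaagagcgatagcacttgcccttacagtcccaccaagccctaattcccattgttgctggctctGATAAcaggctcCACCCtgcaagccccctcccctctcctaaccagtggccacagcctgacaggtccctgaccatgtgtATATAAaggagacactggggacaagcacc

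The theta-globin copies were less alike. Hbq1b and Hbq1a differed at 14 of 300 letters around the first base (95.3% identical), of which 11 lay before it. These 11 letters are in capitals.
Hbq1b (chr11:32286714-32286963, plus strand): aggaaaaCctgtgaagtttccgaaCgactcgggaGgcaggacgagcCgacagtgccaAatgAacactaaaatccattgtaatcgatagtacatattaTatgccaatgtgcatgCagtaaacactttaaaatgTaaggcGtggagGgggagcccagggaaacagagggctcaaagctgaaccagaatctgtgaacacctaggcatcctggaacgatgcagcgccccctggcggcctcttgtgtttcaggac
Hbq1a (chr11:32299819-32300068, plus strand): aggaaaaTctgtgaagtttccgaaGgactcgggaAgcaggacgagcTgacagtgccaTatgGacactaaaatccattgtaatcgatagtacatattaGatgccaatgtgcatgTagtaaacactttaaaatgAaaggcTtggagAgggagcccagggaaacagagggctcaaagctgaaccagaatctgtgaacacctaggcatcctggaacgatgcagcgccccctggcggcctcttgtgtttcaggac

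The promoters of the flanking genes Mpg, Nprl3 and Snrnp25 held more CG pairs than those of the globin genes. That of Rhbdf1 was not available. Mpg and Nprl3 are shown because their first bases lie on either side of the longest stretch without a peak, with their CG pairs in capitals. Nprl3 is written on its own strand.
Mpg (chr11:32226255-32226504, plus strand): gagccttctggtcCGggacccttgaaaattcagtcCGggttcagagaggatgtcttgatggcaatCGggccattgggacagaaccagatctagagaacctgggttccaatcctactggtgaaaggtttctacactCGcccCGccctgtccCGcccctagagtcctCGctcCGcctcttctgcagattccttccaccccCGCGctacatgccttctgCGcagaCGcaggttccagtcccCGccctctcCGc
Nprl3 (chr11:32267708-32267957, minus strand): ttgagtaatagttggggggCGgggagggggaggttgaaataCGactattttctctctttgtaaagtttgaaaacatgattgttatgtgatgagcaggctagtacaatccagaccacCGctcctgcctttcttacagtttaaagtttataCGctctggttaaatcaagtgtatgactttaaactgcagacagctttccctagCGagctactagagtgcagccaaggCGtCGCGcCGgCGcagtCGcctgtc

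In 300-letter windows, which add the first 50 transcribed bases, Mpg and Snrnp25 held 22 CG pairs each and Nprl3 held 20. The globin windows held 13 in Hbq1b, 8 in Hbq1a, 4 each in Hba-a1 and Hba-a2 and 2 in Hba-x. The median of all 32851 windows in the table was 7. Of all windows, 76.9% held fewer than Mpg or Snrnp25, 73.5% fewer than Nprl3 and 62.1% fewer than Hbq1b. The windows of Hba-a1, Hba-a2, Hba-x and Mpg held CACCC, the core of the motif bound by the erythroid activator Klf1, as did 57.5% of all windows. CCAAT was in 6 of the 8 windows, all but those of Hba-x and Nprl3, and in 37.4% of all windows. AGATAA, the core of the Gata1 motif, and TGAGTCA, the core of the Nfe2 motif, were in 0 of the 8 windows, against 11.2% and 5.20% of all. The shorter GATAA was in those of Hba-a1, Hba-a2, Hba-x and Snrnp25, against 25.4% of all, and ATATAA in those of Hba-a1, Hba-a2, Hba-x and Hbq1b, against 9.82% of all. These last 2 were added after the sequences had been read. TATAAA, which in Hba-x overlaps ATATAA, was in the windows of Hba-x and Nprl3 and in 13.6% of all. Both strands were searched, GATAA lies within AGATAA, and a match of letters is not evidence of binding.

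Peaks lay close together in this locus. They covered 13.4% of the window in replicate 1 and 12.6% in replicate 2, against 2.30% and 2.41% of chromosome 11 from its first to its last annotated feature. The window was drawn around genes and overlaps 10 protein-coding genes, and stretches of like gene density were not compared. Most of the peaks in the window were weak. The enrichment value, which is the authors' signal value of a peak on a scale they do not state, had a median of 4.08 over the locus peaks in replicate 1 and 4.03 in replicate 2, against 5.51 and 5.31 over all peaks. The strong peaks stood near the first bases of the flanking genes, behind that of Hbq1b and, at the edge of the window, at the neighbouring gene Il9r.

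A gene was called marked when its first base ± 1000 bp overlapped a peak in each of the replicates. By this rule 8 of the 9 genes were marked, against 48.8% of protein-coding genes. All 4 flanking genes were marked, and so were 4 of the 5 globin genes, all but Hba-x. With a window of 500 bp, 5 of the 9 genes were marked, since Hba-a1, Hba-a2 and Hbq1a no longer passed, and at a minimum −log10 q of 2 or 5, 7 were, without Hbq1a. The first base itself lay inside a peak of both replicates for 1 of the 9 genes, Mpg, against 23.9% of protein-coding genes. It did for 0 of the 5 globin genes. Across all marked genes, 51.0% had a first base that was not inside a peak of both replicates, so an uncovered first base was common. The nearest peak lay a median of 1 bp from the first base over all marked genes, with an upper quartile of 33 bp (mean of the replicates). For a gene with several annotated first bases the shortest distance was taken, which favours such genes. Of all marked genes, 98.7% had a nearer peak than Hba-a1, 99.1% a nearer one than Hbq1a and 99.95% a nearer one than Hba-a2. The other marked genes had peaks close by, Mpg at 0 bp, Hbq1b and Rhbdf1 at 7.5 bp, Nprl3 at 46.5 bp and Snrnp25 at 53 bp. The genes were not tested as a group, since they lie side by side in 1 locus.

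**Figure D1:**
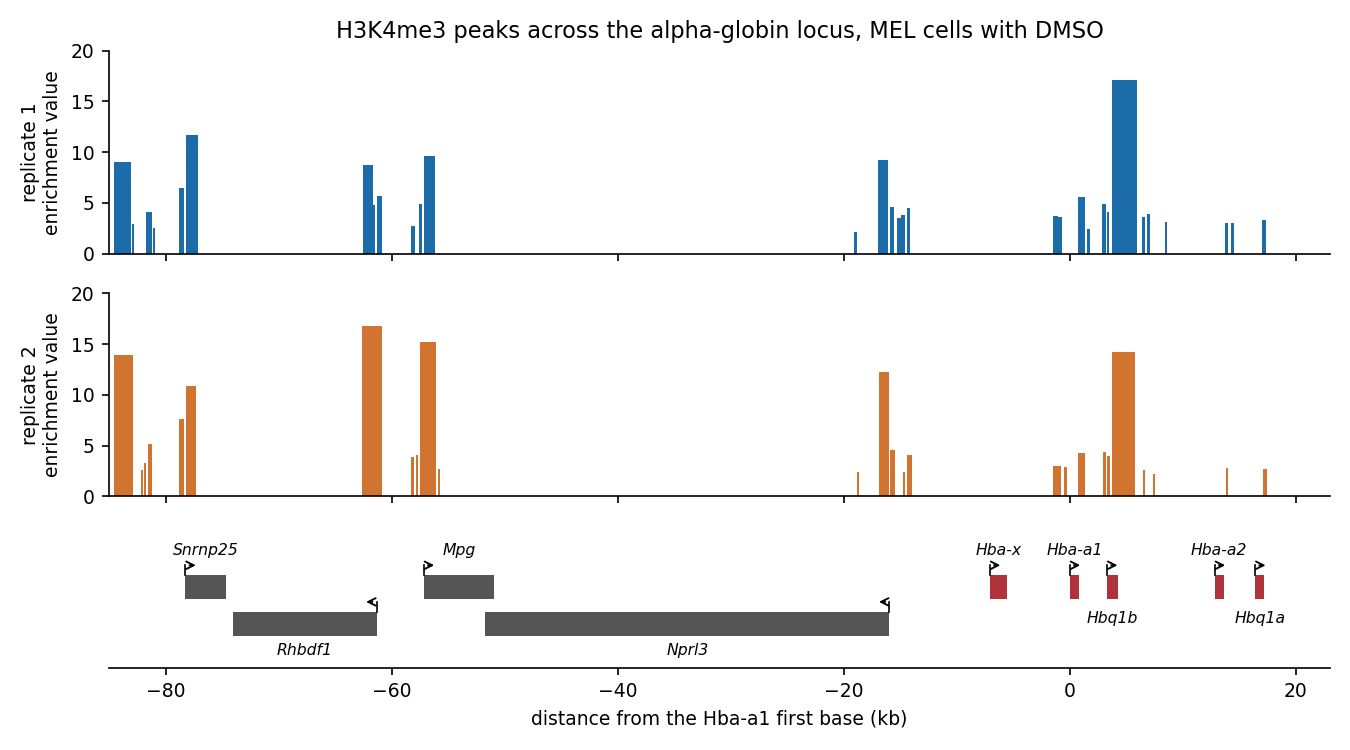
Peaks of replicate 1 (top, blue) and replicate 2 (middle, orange) across the alpha-globin locus, with the enrichment value on the vertical axis and the distance from the Hba-a1 first base in kb on the horizontal axis. Gene boxes are red for globin and grey for flanking genes, plus-strand genes stand above minus-strand genes, and arrows mark first bases; the tallest bars stand near the first bases of the flanking genes, behind that of Hbq1b and, at the far left, at the neighbouring gene Il9r, and the longest gap covers most of Nprl3.

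Snrnp25 (chr11:32205415-32208996, plus strand) encodes a protein of the minor spliceosome. Its value, the highest enrichment value among the peaks within 1000 bp of the first base, was 11.7 in replicate 1 and 10.8 in replicate 2, or 11.3 ± 0.585 (SD, n = 2, as for all means that follow). The first base was not covered. The main peak began 70 bp downstream in replicate 1 and 36 bp downstream in replicate 2, and a second peak, of 6.49 and 7.59, ended 142 and 139 bp upstream. That second peak lay over the end of the span of Il9r, a receptor gene on the minus strand, which RefSeq carries up to 32205283. The first base of Il9r in the promoter table, 32200279, stood just outside the window and was itself inside a peak of both replicates (9.05 in replicate 1 and 13.96 in replicate 2).

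Rhbdf1 (chr11:32209585-32222331, minus strand) encodes an inactive rhomboid protein. Its value was 8.76 in replicate 1 and 16.8 in replicate 2, a mean of 12.8 ± 5.71, the widest spread of the 8 genes with a value. Replicate 1 held 3 separate peaks here, of 8.76, 4.76 and 5.65, and its nearest peak lay 15 bp upstream of the first base. Replicate 2 held a single peak of 1759 bp that covered the first base. The joined stretch of peaks was nearly as long in both, 1659 bp in replicate 1 and 1759 bp in replicate 2, so the replicates differed in the height and in how the stretch was broken up. With gaps of up to 3000 bp joined, the mean stretch was 6642.5 bp and shared with Mpg.

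Mpg (chr11:32226505-32232702, plus strand) encodes a DNA glycosylase that removes alkylated purines. Its value was 9.67 in replicate 1 and 15.2 in replicate 2, a mean of 12.4 ± 3.93. Its peak covered the first base in both. It ran from 32226491 to 32227539 in replicate 1 and from 32226154 to 32227554 in replicate 2. Weaker peaks of 2.70 to 4.89 lay upstream. The gene overlaps the 3′ end of Nprl3, and no peak lay in the shared part.

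Nprl3 (chr11:32231963-32267707, minus strand) encodes a subunit of a complex that restrains mTOR signalling and hosts alpha-globin enhancers in its introns. Its value was 9.22 in replicate 1 and 12.3 in replicate 2, a mean of 10.7 ± 2.16. The first base lay in a narrow gap. The main peak, inside the gene, ended at 32267618 in replicate 1 and 32267661 in replicate 2, and the next peak outward, of 4.61 and 4.55, began 53 and 40 bp upstream of the first base. Together these peaks and those farther upstream formed a domain, a run of peaks joined across gaps of up to 1000 bp, of 2854 bp in replicate 1 and 2926 bp in replicate 2. Over all marked genes the median domain was 2265.5 bp. The width rested on the gap allowed, and the mean of 2890 bp became 912.5 bp with no gap joined and 4913 bp with gaps of up to 3000 bp.

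The body of Nprl3 was almost free of called peaks. From 32227929, within Mpg, to 32264552 no peak of either replicate was called, a stretch of 36624 bp and the longest empty one in the window. Between it and the peak at the 5′ end, each replicate had 1 weak peak. That of replicate 1 ran from 32264553 to 32264843 with a value of 2.16, and that of replicate 2 from 32264857 to 32265027 with a value of 2.37. They did not overlap each other. The replicated set nevertheless held a peak across both, from 32264558 to 32265178, with a value of 2.52. Of the peaks of replicate 1, 0.7996% had a lower value than its weak peak, and of those of replicate 2, 2.48% had a lower value than the other. Peak calls for H3K4me3 do not list enhancers, and marks of enhancers were not analysed here.

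Upstream of Nprl3, on the side of the globin genes, 4 peaks of replicate 1 began between 53 and 1521 bp from the first base and 3 of replicate 2 between 40 and 1547 bp from it. Their values ran from 3.48 to 4.61 in replicate 1 and from 2.40 to 4.55 in replicate 2. All 3 of replicate 2 overlapped a peak of replicate 1. Beyond them came an empty stretch of 12493 bp, from 32269712 to 32282204, which held the whole of Hba-x.

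Hba-x (chr11:32276600-32278116, plus strand), the embryonic zeta-globin gene, had no peak of either replicate in its span or within 1000 bp of its first base. The nearest peaks began 5605 bp downstream in replicate 1 and 5621 bp downstream in replicate 2, and belong to the stretch before Hba-a1. A wider window of 2000 bp did not mark it either.

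Hba-a1 (chr11:32283672-32284486, plus strand), an adult alpha-globin gene, was flanked by peaks and uncovered at its own first base. Upstream, replicate 1 had peaks of 3.72 and 3.62 that together ran from 32282205 to 32282946, and replicate 2 had 1 peak of 2.93 from 32282221 to 32282931. A further peak of 2.90 in replicate 2 alone, from 32283190 to 32283411, ended 261 bp before the first base, while the nearest in replicate 1 ended 726 bp before it. Downstream, a peak began inside the gene, 735 bp after the first base in replicate 1 and 748 bp after it in replicate 2, and ran past the 3′ end. This last peak gave the gene its value, 5.61 in replicate 1 and 4.25 in replicate 2, a mean of 4.93 ± 0.964. Of all marked genes, 2.23% had a lower mean.

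Hbq1b (chr11:32286964-32287912, plus strand), the theta-globin gene behind Hba-a1, carried the strongest peak of the globin genes. Its value was 17.1 in replicate 1 and 14.2 in replicate 2, a mean of 15.7 ± 2.09, and 73.5% of marked genes had a lower mean. In replicate 1 this was the highest peak of the whole window, and in replicate 2 those of Rhbdf1 (16.8) and Mpg (15.2) were higher. The peak did not sit on the first base. It began 409 bp after it, inside the gene, in both replicates, and ended 2623 bp after it in replicate 1 and 2502 bp after it in replicate 2, well past the 3′ end. At the first base itself stood a small peak, of 4.08 in replicate 1, which covered it, and of 4.01 in replicate 2, which began 15 bp after it. Another, of 4.91 and 4.39, ended 87 and 88 bp before it. The domain was 4295 bp in replicate 1 and 4571 bp in replicate 2, a mean of 4433 ± 195 bp, and 92.7% of marked genes had a narrower one. That mean became 2154.5 bp with no gap joined and 9520.5 bp, with Hba-a1 in the same domain, with gaps of up to 3000 bp.

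Hba-a2 (chr11:32296492-32297310, plus strand), the other adult alpha-globin copy, passed the rule by a small margin. Its nearest peaks began 935 bp after the first base in replicate 1 and 972 bp after it in replicate 2, past the 3′ end of the gene. Their values were 3.005 in replicate 1 and 2.75 in replicate 2, a mean of 2.88 ± 0.181, the lowest of the 8 marked genes. Of all marked genes, 0.0476% had a lower mean. No peak of either replicate lay in the 5180 bp from 32292247 to 32297426, which hold the whole gene.

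Hbq1a (chr11:32300069-32300873, plus strand), the theta-globin gene behind Hba-a2, had a single weak peak. It began 607 bp after the first base in replicate 1 and 654 bp after it in replicate 2 and ran over the 3′ end. Its values were 3.29 in replicate 1 and 2.71 in replicate 2, a mean of 3.002 ± 0.414, and 0.162% of marked genes had a lower mean. Its call was lost at a minimum −log10 q of 2. The peak was 376 bp wide in replicate 1 and 374 bp in replicate 2. The theta-globin copies thus differed by more than the spread between the replicates, since both values of Hbq1b lay above both values of Hbq1a. The adult copies did too, with both values of Hba-a1 above both of Hba-a2, though reads from near-identical copies may have been placed at either.

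**Figure D2:**
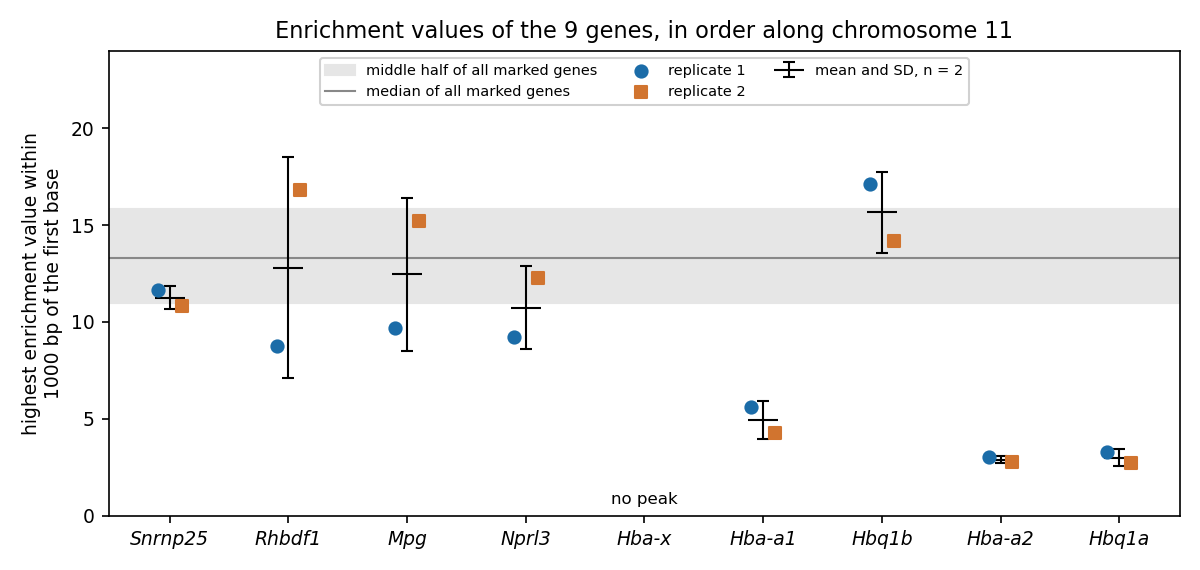
Highest enrichment value within 1000 bp of the first base (vertical axis) for the 9 genes in order along the chromosome, with replicate 1 as blue circles, replicate 2 as orange squares, and the mean and SD of the 2 replicates in black. The grey band spans the quartiles of all marked protein-coding genes, 10.99 to 15.8, around their median of 13.3; Hba-a1, Hba-a2 and Hbq1a lie below it in both replicates and Hba-x has no peak.

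By mean value, the order of the marked genes was Hbq1b, Rhbdf1, Mpg, Snrnp25, Nprl3, Hba-a1, Hbq1a and Hba-a2. Among the first 5, the replicates of each gene and its neighbour in this order overlapped. Both values of Hbq1b nevertheless lay above both of Snrnp25 and both of Nprl3. The lowest value among them, 8.76 for Rhbdf1 in replicate 1, was above the highest among the other 3, 5.61 for Hba-a1 in replicate 1. Both values of Hba-a1 lay above those of Hbq1a and Hba-a2. The ranges of Hbq1a and Hba-a2 overlapped.

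The alpha-globin copies are so alike that short reads may fit more than 1 place. Read length and the handling of such reads are not given in the sources used here. Likeness was measured on the NCBIM37 genome, the assembly behind mm9, as the share of 31-base words that occur more than once in the genome on either strand. The spacing between the first bases of the cluster was the same in both assemblies, for example 3292 bp between Hba-a1 and Hbq1b and 9528 bp between Hbq1b and Hba-a2, so distances from a first base could be carried over. Hba-a1 and Hba-a2 shared an identical stretch of 1022 letters, 351 before the first base of Hba-a1 and 671 from it on. All words in the 250 bases before the first base (100%) had a copy for both genes, as did 96.2% of those in the Hba-a1 span and 96.1% of those in the Hba-a2 span. For Hbq1a and Hbq1b the 250 bases before the first base had 36.4% each. For Hba-x, Nprl3, Mpg and Snrnp25 they had 0%.

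Around the Hba-a1 first base, the stretch without a peak of either replicate ran from position −260 to position 734, counted in bp from the first base. In this stretch 96.9% of the words had a copy elsewhere. In the peak that followed, 59.4% did in replicate 1 and 60.1% in replicate 2. The strongest Hbq1b peak had 11.8% and 12.5%. Around Hba-a2 the empty stretch was far longer, from position −4245 to position 934, and 39.6% of its words had a copy, against 42.3% and 25.6% in the peaks that followed. Around Hbq1a the empty stretch, from position −1840 to position 606, had 43.9%, and the peak that followed had 1.16% and 1.74%. The first base of Hba-x lay in sequence with few copies (3.65% of words within 1000 bp). At Hba-a1 the stretch without a call thus lay mostly over repeated sequence. At Hba-a2 the start of the gene was repeated, but most words of the whole empty stretch had no copy. Around the first base of Hba-x the sequence without a call was mostly unique. The part of repeated sequence in the missing calls was not tested.

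**Figure D3:**
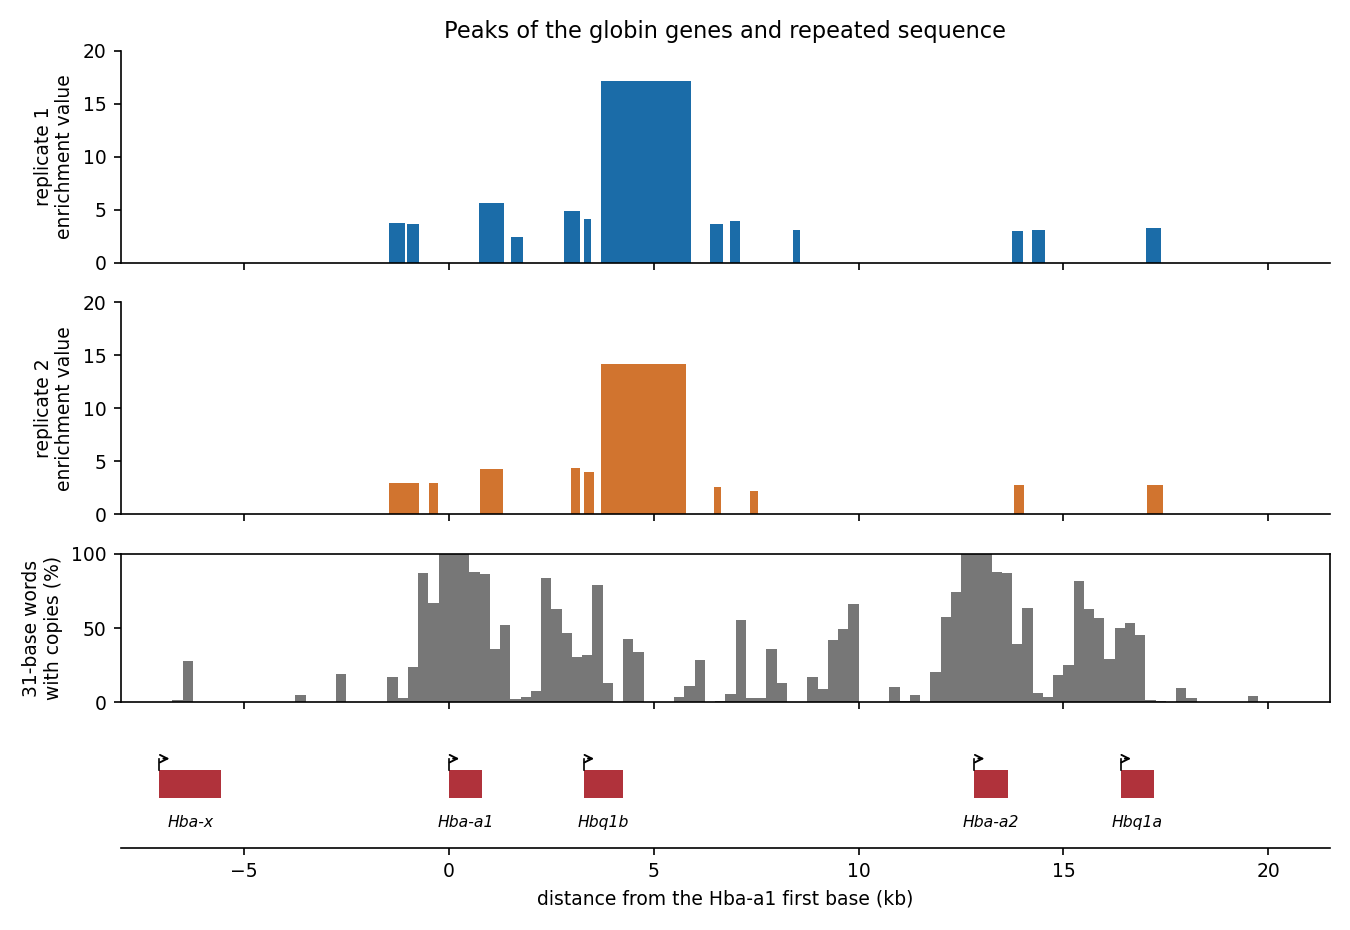
Peaks of replicate 1 (blue) and replicate 2 (orange) over the globin genes, with the enrichment value on the vertical axis, above the share of 31-base words that occur more than once in the genome, in bins of 250 bp, and the gene spans (red, arrows at first bases); the horizontal axis is the distance from the Hba-a1 first base in kb. The share reaches 100% over the starts of Hba-a1 and Hba-a2, where no peak was called in either replicate, and is low over most of the strong peak behind the Hbq1b first base.

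An older peak set on build mm9, deposited for the whole series, gave a coarser picture with 8 peaks in the locus of 15810 in all. It covered the first bases of 5 of the 9 genes, namely Snrnp25, Rhbdf1, Mpg, Nprl3 and Hbq1b. Its enrichment values were 4.55 at Mpg, 3.19 at Rhbdf1, 2.49 at Snrnp25, 2.05 at Nprl3 and 1.61 at Hbq1b. Their scale cannot be set beside that of the mm10 sets. The first base of Hba-a1 (32183672 on mm9) again fell between peaks, 1 from 32182161 to 32183457 with a value of 2.04 and 1 from 32184169 to 32190684 with a value of 1.61. The second was 6516 bp long, overlapped coding exons of Hba-a1 and Hbq1b in the GENCODE M1 annotation, and had its summit at 32187810. It covered the first base of Hbq1b and had the lowest value of the 8 peaks, with 5.66% of the set lower. In the mm10 replicates, by contrast, Hbq1b had the strongest peak of the globin genes. Hba-a2, Hbq1a and Hba-x had no peak in that set. As a set of the same series, whose source alignments are not named, it is no independent check.

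The replicates shared most of the locus peaks. Of those of replicate 1, 24 of 31 (77.4%, with a 95% Wilson interval of 60.2% to 88.6%) had a counterpart in replicate 2, against 84.6% of all its peaks. Of those of replicate 2, 20 of 26 (76.9%, 57.9% to 89.0%) had one in replicate 1, against 80.9% of all its peaks. Both intervals hold the share over all peaks. They cover counting error only and take the peaks as independent, which neighbouring peaks of 1 library are not. Merged across the replicates, the peaks made 32 regions, of which 19 were shared, 7 came from replicate 1 only and 6 from replicate 2 only.

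The replicates differed in opposite directions along the locus. In the globin cluster, from Hba-x on, all 8 shared regions had the higher value in replicate 1, with a median log2 ratio of replicate 1 to replicate 2 of 0.28 (SD 0.16 over regions). Of the 6 shared regions among the flanking genes, 1 had the higher value in replicate 1, the main Snrnp25 peak, and the median log2 ratio was −0.41. The shared Nprl3 region also had −0.41, and the 3 shared regions upstream of Nprl3 were all higher in replicate 1, with a median of 0.14. Over all 34296 shared regions of the genome, 43.5% were higher in replicate 1, with a median of −0.07 and an SD of 0.47. The ratios of the globin cluster ran from 0.02 to 0.50. Neighbouring regions are not independent, and with 1 library on each side no test was possible.

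**Figure D4:**
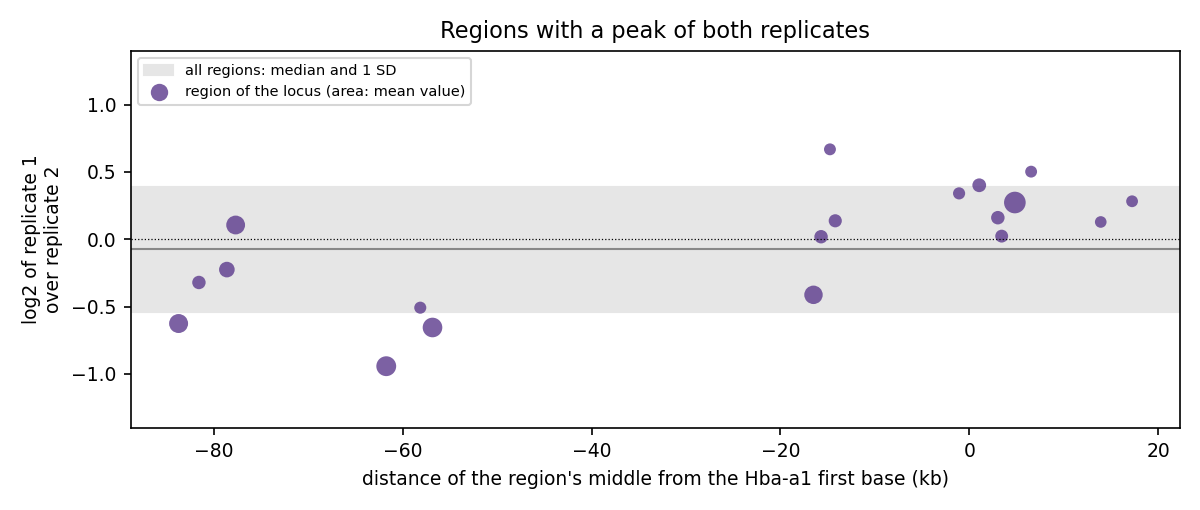
Log2 of the enrichment value of replicate 1 over that of replicate 2 (vertical axis) for the shared regions of the locus, by the distance of the region's middle from the Hba-a1 first base in kb (horizontal axis), with a point's area growing with the mean value. The grey band is the median of all shared regions of the genome, −0.07, with 1 SD of 0.47 on either side; the 8 points of the globin cluster lie above 0 and most of those of the flanking genes below it.

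The factors known to act on the locus were listed with their own peaks for comparison. All 10 of the regulators were marked, against 48.8% of protein-coding genes. The list was drawn up with earlier results of these data known, so this is not a blind comparison. Klf1, an activator of adult globin genes, had a value of 21.0 ± 0.400, and Zfpm1, the Gata1 cofactor also called Fog, had 18.5 ± 0.678. Of the Gata1 complex, Gata1 had 18.04 ± 4.28, Ldb1 17.7 ± 0.750, Tal1 16.6 ± 4.38, Tcf3 9.27 ± 1.32 and Lmo2 4.81 ± 0.914. Nfe2, which binds the upstream enhancers, had 5.83 ± 2.01. Atrx and Daxx, chromatin proteins that deposit a histone H3 variant, had 16.9 ± 0.557 and 12.6 ± 3.88. These are values of peaks at the factors' own genes and not of their binding.

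Of the 8 genes for partner chains and heme balance, 7 could be placed, and 3 were marked, a share near the 48.8% of all protein-coding genes. Alas2, the erythroid enzyme that starts heme synthesis, had 17.97 ± 4.19, and Eif2ak1, the kinase that slows globin translation when heme is short, had 17.9 ± 2.84. The adult beta-globin gene Hbb-bt had 5.05 ± 0.0861, close to the value of Hba-a1 (4.93 ± 0.964). Hbb-bs, the other adult beta-globin copy, and the embryonic Hbb-y and Hbb-bh1 had no peak within 1000 bp of a first base in either replicate, and Hbb-bh2 had one of 3.07 in replicate 1 alone. Ahsp, the chaperone of free alpha chains, was not placed and has no value here. The first base of Hbb-bt, like those of Hba-a1 and Hba-a2, was not inside a peak of both replicates, as for 51.0% of all marked genes. By distance, 98.7% of marked genes had a nearer peak than Hba-a1, 99.1% than the theta-globin gene Hbq1a and 99.95% than Hba-a2. That distance is not given for Hbb-bt, so the alpha-globin and beta-globin genes were not compared by it.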

How the data were processed

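H3K4me3 ChIP-seq libraries of 2 replicates of DMSO-treated MEL cells were analysed from called peaks. The authors deposited narrowPeak sets on mm10 for each replicate, for both pooled and for replicated peaks, and an older set on mm9, per the labels and the notes deposited with them. Each deposited peak has a score, a signal value (called enrichment value here) whose scale is not stated, and p and q values as −log10, of which the q-value was used. An aligner, a peak caller and thresholds are not given in the sources used here. Peak files without read counts leave the depth unknown and give no peak an interval of its own.

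First bases came from the RefSeq promoter table (GRCm38.p6, 17492 genes) or, for 4044 genes including Rhbdf1, from the RefSeq gene span with the GENCODE M1 strand, and 351 protein-coding genes had none. A gene with several annotated first bases was marked if any 1 of them met the rule in both replicates. In each replicate apart, it was given the highest value, the widest domain and the shortest distance to a peak over its first bases. Positions are 1-based. Peaks overlapped at 1 bp or more, and domains joined peaks across gaps of up to 1000 bp. Repeats were counted as 31-base words over the NCBIM37 genome, and no coordinate was converted between builds. The steps ran in Python 3.11.15 with numpy 2.4.6 and pandas 2.3.3 and were checked on simulated peaks. With 1 group, no test between conditions was made. All 9 genes and all listed pathway genes are reported. Every locus peak was counted, but some weak ones are not described singly. The genes and lists were chosen with earlier results of these data known. Alternatives were other q minimums, windows, gaps, overlaps, peak sets and flanks, and each replicate left out in turn. Some of the listed cell type markers are not reported here.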

Additional observations from a re-analysis of the deposited data

How the results depend on the processing

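The 8 marked genes stayed 8 in 7 of the alternatives and were 7, without Hbq1a, at a minimum −log10 q of 2 or 5. Within 500 bp of the first base they were 5, namely Hbq1b, Nprl3, Mpg, Snrnp25 and Rhbdf1, because the peaks of Hba-a1, Hba-a2 and Hbq1a that both replicates hold lie farther off. The first base was covered for 1 gene in both replicates, for 2 without replicate 1 (Mpg and Rhbdf1), for 2 without replicate 2 (Mpg and Hbq1b), and for 3 in the replicated set and 3 in the pooled set (Hbq1b, Mpg and Rhbdf1). The share of locus peaks held by both replicates, 77.2% on average, was 80.2% at a minimum −log10 q of 2, 75.2% at 5 and 63.6% when an overlap of 50% of both peaks was required. The mean number of locus peaks, 28.5, ranged from 21 to 31, and the number of marked pathway genes, 13, from 10 to 14. In the replicated and pooled sets the enrichment values of Snrnp25 (9.71) and Mpg (15.4) lay outside the values of both replicates. Domain widths changed with the gap that was joined; with 3000 bp, those of Hba-a1 and Hbq1b became 1 domain of 9520.5 bp. The use of 1 5′ end per gene, from the gene span and GENCODE strand, was added after seeing the data. It left 8 genes marked but lowered the number of marked pathway genes from 13 to 10.

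No paired analysis was possible because there is 1 group. Depth is unknown, so a stretch without a peak is one where none was called, not one shown to lack the mark. Called peaks leave out signal under the authors' threshold.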
